A study of Mus musculus with 17 samples.

Results

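The Toll-like receptors were followed as 10 genes, Tlr1, Tlr2, Tlr3, Tlr4, Tlr5, Tlr6, Tlr7, Tlr8, Tlr9 and Tlr13, of the 21931 genes in the deposited table, and their rows were found by gene symbol. All 10 were found, and all 10 passed the filter on low counts. The tumors were grown from MC38, a mouse colon cancer cell line, in wild-type C57BL/6J mice 6 to 8 weeks old, with cells injected under the skin on both sides. In the cryoablation group the tumor on 1 side was frozen on day 7, and the tumor on the other side, which was never frozen, was taken 5 days later for bulk RNA sequencing. The control group held 9 tumors and the cryoablation group 8, and the mice of both groups carried no engineered allele or other treatment according to the labels. The labels do not say that each tumor came from a mouse of its own, so the p-values measure the spread between these tumors only. The comparison asks whether freezing a tumor changed receptor transcripts in a distant tumor.

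Toll-like receptors are sensors that recognise molecules of microbes and of damaged cells. Those at the cell surface read lipids, lipoproteins and flagellin, and those inside endosomes read nucleic acids. Nearly all of them pass their signal through the adaptor Myd88, Tlr3 uses the adaptor Ticam1, and Tlr4 uses both, which leads to NF-kappaB, interferon regulatory factors and the release of cytokines. In tumors they are carried mainly by macrophages, dendritic cells and other leukocytes, although fibroblasts, endothelium and tumor cells can also carry some of them.

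Sequencing depth was similar in both groups, with 14154687 to 17898672 counts for each control tumor and 13524899 to 16847050 for each cryoablation tumor. Levels are given as TMM-normalized CPM, the counts scaled to the size of each library. Before the TMM step, 3 counts were worth 0.168 to 0.222 CPM. Macrophage markers were plentiful, with Csf1r between 84.7 and 279 TMM-normalized CPM, whereas of 6 epithelial markers the 2 intestinal ones were at or near the floor. Cdx2 had 0 counts in all 17 tumors, which allows up to 0.222 CPM before the TMM step, and Vil1 stayed at or below 0.672 CPM. The other 4 were measured, with Cdh1 from 5.31 to 26.2 CPM and highest values of 58.8 CPM for Krt8, 54.8 CPM for Krt18 and 8.67 CPM for Epcam. Cryoablation tumors 2, 4 and 5 stood apart from the other 14 on the first principal component of the 500 most variable genes, the members left out, with values between -31.4 and -25.5 against -9.48 to 16.8. This component held 63.9% of the variance, and the values that these 3 tumors move most are given with and without them.

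Sequences are shown for 2 reasons. Tlr1 and Tlr6, which both pair with Tlr2, lie side by side on the minus strand at chr5:64924679-64933563 and chr5:64952031-64960097 (GENCODE M21, GRCm38), and their longest transcripts share an exact run of 229 bases inside the coding region of both. The run covers bases 1939 to 2167 of the Tlr1 transcript and 1652 to 1880 of the Tlr6 transcript. It is printed because reads that lie wholly inside it cannot be told apart by their own sequence.
Tlr1 and Tlr6 shared coding run: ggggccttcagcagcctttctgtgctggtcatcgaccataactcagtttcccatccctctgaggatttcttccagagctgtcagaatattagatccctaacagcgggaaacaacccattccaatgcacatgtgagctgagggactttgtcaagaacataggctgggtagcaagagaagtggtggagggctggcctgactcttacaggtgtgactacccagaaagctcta
Of the 50-base stretches of the Tlr1 transcript, 15.3% also occurred in Tlr6, while no other pair of members shared a run longer than 18 bases. How the authors' counting divided such reads is not given in the sources used here, so the counts of Tlr1 and Tlr6 are uncertain to that extent.

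Promoter windows of Tlr1, Tlr8 and Tlr9 are printed because the results below turn on these genes. The windows are the 250 bases before the RefSeq start (GRCm38.p6), and capitals mark GAGGAA, the core bound by the myeloid factor PU.1, or GAAANNGAA, an interferon response element type, on either strand.
Tlr1, chr5:64933559-64933808, minus strand: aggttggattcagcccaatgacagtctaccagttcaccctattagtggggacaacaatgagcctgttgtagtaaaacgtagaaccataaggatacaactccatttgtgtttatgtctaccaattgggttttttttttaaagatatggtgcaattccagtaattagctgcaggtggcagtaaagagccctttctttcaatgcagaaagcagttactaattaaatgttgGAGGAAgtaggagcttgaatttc
Tlr8, chrX:167264330-167264579, minus strand: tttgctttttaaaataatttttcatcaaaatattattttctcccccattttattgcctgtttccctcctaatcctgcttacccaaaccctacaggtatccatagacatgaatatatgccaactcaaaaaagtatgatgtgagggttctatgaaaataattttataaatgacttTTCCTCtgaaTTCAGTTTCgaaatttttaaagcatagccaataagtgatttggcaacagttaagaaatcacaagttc
Tlr9, chr9:106222348-106222597, plus strand: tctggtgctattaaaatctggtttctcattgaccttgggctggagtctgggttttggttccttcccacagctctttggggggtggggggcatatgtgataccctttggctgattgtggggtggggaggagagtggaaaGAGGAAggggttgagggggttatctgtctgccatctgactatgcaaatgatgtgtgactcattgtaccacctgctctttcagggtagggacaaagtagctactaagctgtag
RefSeq windows were at hand for 8 of the 10 members, with 10 windows in all. Tlr1 had another window, at chr5:64932700-64932949, which is not printed and held none of the motifs named here. GAGGAA was found in 4 of the 10, those of Tlr1, Tlr8, Tlr9 and Tlr13, and in 23.3% of all 32851 windows. It stood 23 bases before the start in Tlr1, 77 in Tlr8, 112 in Tlr9 and 83 in Tlr13. GAAANNGAA was found in the windows of Tlr6 and Tlr8 and in 7.13% of all windows. The NF-kappaB type site GGGANNTTC was found in those of Tlr2 and Tlr3 and in 3.23% of all. No 2 of these motifs overlapped in a member's window apart from 2 copies of GAAANNGAA in Tlr6, which began 115 and 109 bases before the start. These matches describe letters in the windows and nothing more.

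Per base of the deposited gene length, Tlr2 was the most abundant receptor transcript of the tumors. Its mean level over the 17 tumors was 13.7 ± 3.90 FPKM (SD, n = 17), and it exceeded Tlr4, the receptor of lipopolysaccharide, in 17 of 17 tumors. The order rests on the length used. That length was 3014 bases for Tlr2 and 5556 for Tlr4, whose longest transcript has 4077 bases. In CPM, which ignores length, their means over all tumors were 41.1 and 41.4. Tlr4 followed at 7.59 ± 1.99 FPKM, and was above Tlr3 in 17 of 17. Tlr3 at 4.62 ± 1.57 FPKM and Tlr13 at 4.51 ± 1.12 FPKM did not differ beyond their spread, Tlr3 being the higher in 8 of 17 tumors. Lower in the order came Tlr1 at 2.83 ± 1.67 FPKM, Tlr7 at 2.09 ± 0.774 FPKM, Tlr8 at 1.90 ± 1.23 FPKM and Tlr6 at 1.52 ± 0.461 FPKM.

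The lowest levels belonged to Tlr9 at 0.689 ± 0.609 FPKM and Tlr5 at 0.307 ± 0.177 FPKM. Neighbours in the order were compared with a two-sided exact sign-flip permutation test on log2(FPKM + 0.01), with p adjusted over the 9 pairs. The steps from Tlr2 to Tlr4, Tlr4 to Tlr3 and Tlr6 to Tlr9 each had an adjusted exact permutation p of 4.58e-05, built on the smallest p the test can give (1.53e-05). Tlr13 exceeded Tlr1 (adjusted exact permutation p = 6.87e-05), and Tlr1 exceeded Tlr7 (adjusted exact permutation p = 0.00926). The order of Tlr3 and Tlr13 (0.987), of Tlr7 and Tlr8 (0.114), of Tlr8 and Tlr6 (0.712) and of Tlr9 and Tlr5 (0.31) did not pass by the same adjusted exact permutation p. The summed level of the 10 receptors ran from 26.9 to 63.7 FPKM in the control group (median 43.3) and from 25.2 to 51.4 FPKM in the cryoablation group (median 35.4), and the ranges overlapped over most of their length.

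**Figure D1:**
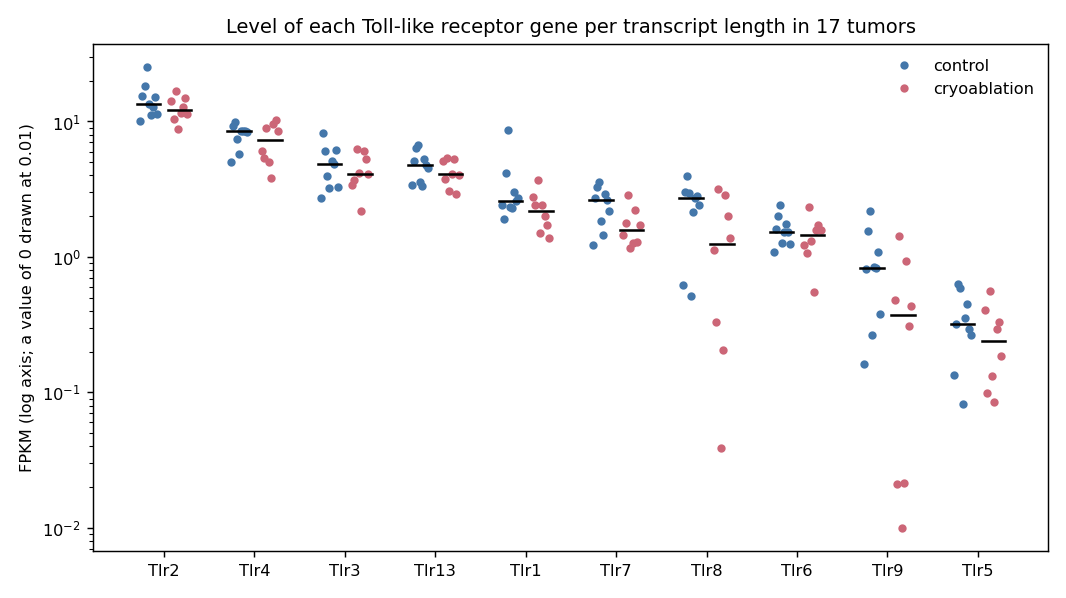
Level of each receptor gene in FPKM (log axis) for 9 control tumors (blue) and 8 cryoablation tumors (red), ordered by mean level over all tumors, with black lines at the group medians and a value of 0 drawn at 0.01. Tlr2 leads and Tlr5 closes the order, and Tlr8 and Tlr9 spread over the widest range, down to 0.0386 FPKM and 0 FPKM.

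No receptor passed the test between the groups, although all 10 had a fitted log2 fold change below 0. With edgeR's quasi-likelihood F test and Benjamini-Hochberg adjustment over 13005 genes, 0 of the 10 members had an adjusted p under 0.05, and the share of all genes tested was also 0%. At an unadjusted p under 0.05 the count was 0 of 10, beside 4.91% of all genes in either direction, 3.74% higher and 1.17% lower. By the threshold of an unadjusted p under 0.05 with an absolute log2 fold change over 1, the count was again 0 of 10, beside 0.492% of all genes. The study gives the same cutoffs and describes a Benjamini-Hochberg adjustment, without stating that the p of its threshold was unadjusted. Fold changes below 0 were found for 10 of 10 members and for 52.0% of all genes, and the median log2 fold change was -0.24 over the members and -0.0088 over all genes. The count below 0 fell to 6 of 10 without cryoablation tumors 2, 4 and 5, when the median of the members was -0.11. That median was -0.13 without control tumor 4, -0.16 without control tumor 3 and -0.36 without cryoablation tumor 3.

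**Figure D2:**
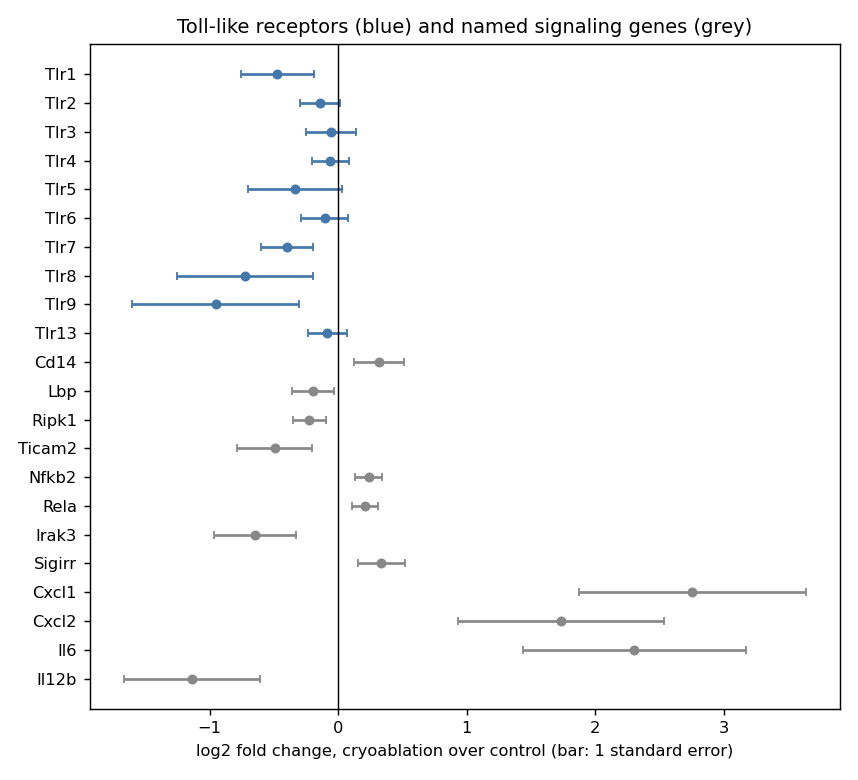
Log2 fold change of cryoablation over control for the 10 receptors (blue) and 12 named signaling genes (grey), with bars of 1 standard error from edgeR. All 10 blue points lie left of 0, from -0.06 for Tlr3 to -0.95 for Tlr9, and the 3 rightmost grey points rest on 1 tumor.

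Among the surface receptors, Tlr2, which recognises bacterial lipoproteins together with Tlr1 or Tlr6, ran from 31.8 to 72.9 CPM in the control tumors (median 42.7) and from 29.8 to 46.4 CPM in the cryoablation tumors (median 38.9). In 7 of the 8 cryoablation tumors the level lay inside the control range. This gave a log2 fold change of -0.14 (SE 0.15; edgeR adjusted p = 0.774), and of -0.02 without control tumor 4.

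Tlr1, the partner of Tlr2 for triacylated lipopeptides, ran from 6.07 to 27.9 CPM in the control tumors (median 8.66) and from 4.59 to 11.4 CPM in the cryoablation tumors (median 7.61). The highest value belonged to control tumor 4, more than any other tumor of either group, and the next control tumor held 12.7 CPM. Tlr1 had a log2 fold change of -0.47 (SE 0.28; edgeR adjusted p = 0.728), and of -0.17 without that tumor. Tlr6, the partner of Tlr2 for diacylated lipopeptides, ran from 4.33 to 8.67 CPM (median 5.38) in the control group and from 2.70 to 7.97 CPM (median 5.53) in the cryoablation group. Here the cryoablation median was the higher, while the fitted log2 fold change was -0.10 (SE 0.19; edgeR adjusted p = 0.836). The ratio of Tlr1 to Tlr6 counts lay between 1.07 and 3.22 in control tumors and between 0.786 and 3.93 in cryoablation tumors.

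Tlr4 ran from 29.6 to 50.3 CPM in the control tumors (median 44.3) and from 27.9 to 54.5 CPM in the cryoablation tumors (median 40.5). The cryoablation group held both the lowest and the highest tumor of the series. Tlr4 had a log2 fold change of -0.06 (SE 0.14; edgeR adjusted p = 0.879). Without cryoablation tumors 2, 4 and 5 it was 0.11, and without cryoablation tumor 5 alone it was 0.0023. Tlr5, the flagellin receptor, was scarce, with at most 59 counts in a control and 49 in a cryoablation tumor, and at least 6 in each. In CPM it ran from 0.460 to 2.99 (median 1.56) and from 0.579 to 2.67 (median 1.19), so that all 8 cryoablation tumors fell inside the control range. Tlr5 had a log2 fold change of -0.34 (SE 0.37; edgeR adjusted p = 0.772), and of 0.0175 without cryoablation tumors 2, 4 and 5.

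Among the endosomal receptors, Tlr7, a sensor of single-stranded RNA, had the smallest edgeR p of the members, while the exact permutation p was smallest for Tlr9. The level of Tlr7 ran from 5.30 to 14.04 CPM in the control tumors (median 10.0) and from 5.00 to 10.7 CPM in the cryoablation tumors (median 6.90). In 7 of the 8 cryoablation tumors it was below the control median, and 7 of the 8 lay inside the control range. Its log2 fold change was -0.40 (SE 0.20; edgeR unadjusted p = 0.0654, adjusted p = 0.728). The difference in mean log2 CPM gave an exact permutation p of 0.0961 (two-sided, 9 against 8). The unadjusted p of Tlr7 was 0.024 without control tumor 1, 0.0254 without control tumor 6 and 0.0229 without cryoablation tumor 3 in edgeR, and 0.0176 in limma voom with quality weights over all tumors.

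Tlr8, a relative of Tlr7 for RNA, lies beside it on the minus strand of the X chromosome (Tlr8 at chrX:167242696-167264329, Tlr7 at chrX:167304929-167330558). Its level was 2.39, 10.2, 12.9, 10.2, 1.99, 7.23, 9.09, 9.55 and 8.22 CPM in control tumors 1 to 9. In cryoablation tumors 1 to 8 it was 3.87, 1.38, 10.5, 0.156, 0.965, 9.56, 6.81 and 4.95 CPM. The lowest 3 of all tumors were thus cryoablation tumors 2, 4 and 5, followed by control tumors 5 and 1, and the groups overlapped. Tlr8 had a log2 fold change of -0.72 (SE 0.53; edgeR adjusted p = 0.734; exact permutation p = 0.0944). It was -0.17 without cryoablation tumors 2, 4 and 5, and the unadjusted p was 0.0326 in limma voom, which gives less weight to deviating tumors.

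Tlr9, the receptor of unmethylated CpG DNA, lies on the plus strand at chr9:106222598-106226883. Control tumors 1 to 9 held 0.598, 2.66, 4.91, 7.25, 0.996, 2.75, 2.68, 3.54 and 1.25 CPM. Cryoablation tumors 1 to 8 held 1.63, 0.0861, 4.53, 0, 0.0965, 3.02, 1.03 and 1.49 CPM. Cryoablation tumors 2, 4 and 5 thus had 1, 0 and 1 counts of Tlr9, no more than the 3 counts taken as the floor, whereas every control tumor had 8 or more. Its log2 fold change was -0.95 (SE 0.65; edgeR adjusted p = 0.729; exact permutation p = 0.0633), and -0.35 without those 3 tumors. Without cryoablation tumor 3 it was -1.44 (edgeR unadjusted p = 0.0418).

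Tlr3, the receptor of double-stranded RNA, ran from 15.2 to 40.4 CPM in the control tumors (median 23.6) and from 14.8 to 30.0 CPM in the cryoablation tumors (median 23.5). Cryoablation tumors lay above and below the control median in equal number, 4 and 4. The log2 fold change of -0.06 (SE 0.19; edgeR adjusted p = 0.913) was above 0 under 4 alternatives, among them 0.0638 without control tumor 2. Tlr13, a mouse receptor of bacterial ribosomal RNA, ran from 13.6 to 27.5 CPM (median 19.3) and from 11.9 to 23.1 CPM (median 20.0). Tlr13 had a log2 fold change of -0.09 (SE 0.15; edgeR adjusted p = 0.838). In bulk RNA, fewer cells that carry a receptor and less receptor RNA per cell cannot be told apart, which holds for every member.

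**Figure D3:**
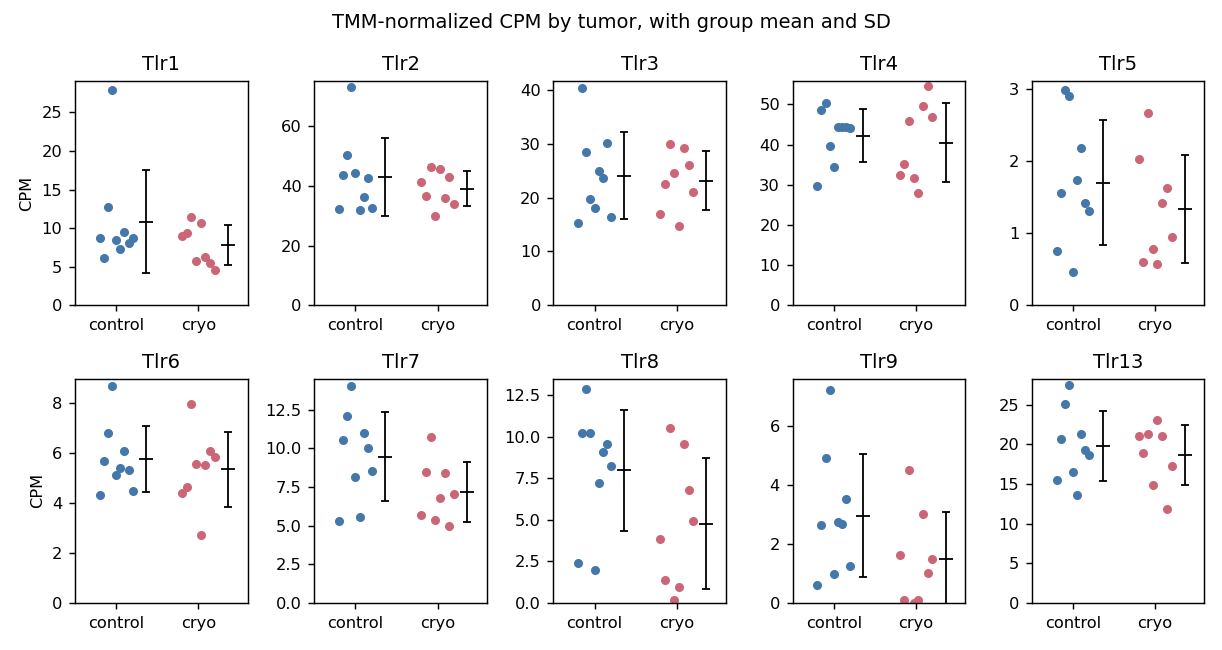
TMM-normalized CPM of each receptor gene (linear axes from 0) in 9 control tumors (blue) and 8 cryoablation tumors (red, labelled cryo), with the group mean and SD at the right of each group. The groups overlap for all 10 genes, control tumor 4 stands above the rest for Tlr1 at 27.9 CPM, and 3 cryoablation tumors lie near 0 for Tlr9.

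The low tumors of Tlr8 and Tlr9 were less set apart for the other endosomal receptors. Tlr13 held 18.9, 14.9 and 23.1 CPM in cryoablation tumors 2, 4 and 5, of which the last was the highest of its group, and Tlr7 held 8.44, 5.39 and 6.75 CPM there, of which 5.39 was among the lowest of all tumors. Tlr3 held 22.5, 24.5 and 14.8 CPM, the last being the lowest of all 17. The ratio of Tlr8 to Tlr7 counts was 0.163, 0.029 and 0.143 in these tumors and 0.451 and 0.245 in control tumors 1 and 5. The value of 0.029 rests on 2 counts of Tlr8, within the floor of 3 counts. In the other 12 tumors the ratio lay between 0.679 and 1.36. Tlr8 and Tlr9 followed the first principal component, and Tlr13 and Tlr7 did so less. Ranked by the slope of log2 CPM on that component over all 17 tumors, Tlr9 was 8th and Tlr8 16th of 13005 genes from the steepest rise, and Tlr5 was 491st. The change in log2 CPM over the range of the component was 4.46 for Tlr9 and 4.16 for Tlr8, against 0.415 for Tlr7 and 0.0147 for Tlr13. These slopes were fitted over all 17 tumors only, so cryoablation tumors 2, 4 and 5, at the far end, weigh on them.

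As the 3 tumors form a cluster of their own, correlations with the component are described over the other 14. Tlr4 (Pearson's r = 0.883), Tlr3 (0.804) and Tlr8 (0.804) had the highest coefficients, and Tlr5 (0.594), Tlr9 (0.524) and Tlr6 (0.418) were lower. Tlr7 (0.149), Tlr2 (0.0873), Tlr13 (-0.0118) and Tlr1 (-0.188) had values near 0. The component is computed from these same tumors and shares their depth and composition, so the coefficients are a description. What moves the component was not tested.

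**Figure D4:**
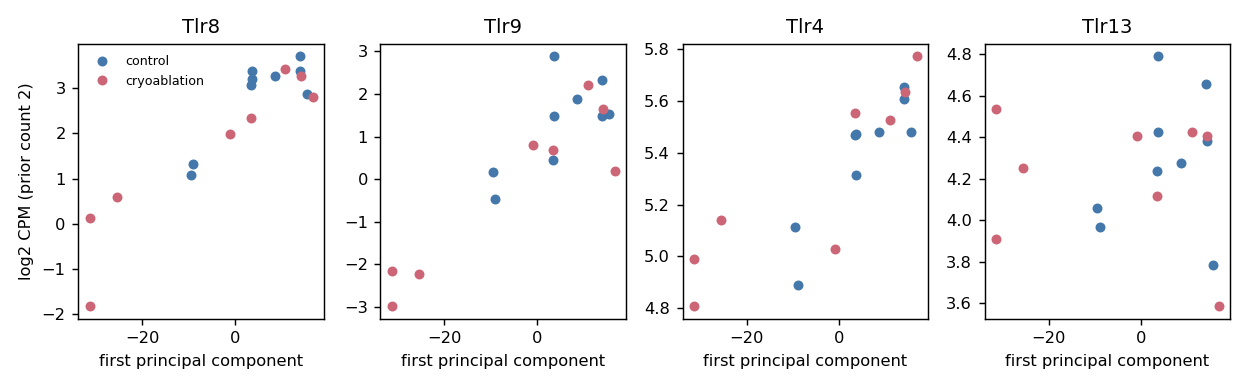
Log2 CPM (prior count 2) of Tlr8, Tlr9, Tlr4 and Tlr13 against the first principal component, which has no unit, in control (blue) and cryoablation (red) tumors. Cryoablation tumors 2, 4 and 5, at the far left, are the lowest for Tlr8 and Tlr9 but not for Tlr13.

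Most pairs of receptors varied in the same direction. Over the 14 tumors, Tlr7 and Tlr13 had the highest coefficient of the 45 pairs (Pearson's r = 0.840), and Tlr8 had 0.800 with both Tlr9 and Tlr5. Tlr9 had 0.785 with Tlr5, 0.776 with Tlr7 and 0.765 with Tlr6, and Tlr4 had 0.768 with Tlr8. Tlr3 and Tlr4 had 0.744, and Tlr1 and Tlr2, which form a receptor together, had 0.741. Tlr2 and Tlr6, which also form a receptor, had 0.731. The lowest values were those of Tlr1 with Tlr4 (-0.28) and with Tlr3 (-0.22). With all 17 tumors Tlr8 and Tlr9 had 0.928, and Tlr2 and Tlr6 had 0.406, with 0.865 within the control and -0.158 within the cryoablation group. These coefficients share library and depth within a tumor and are given without a test.

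**Figure D5:**
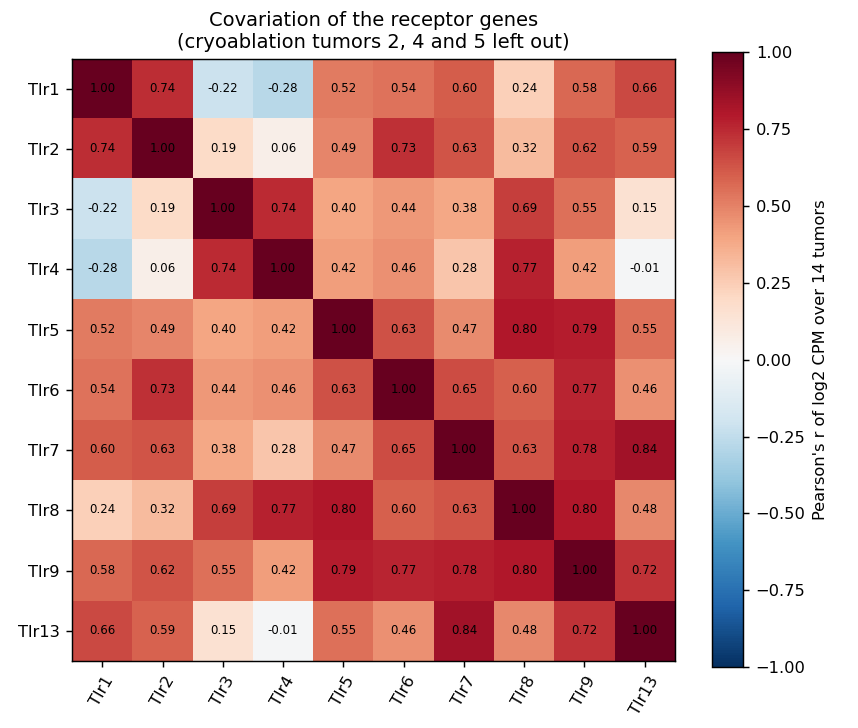
Pearson's r of log2 CPM (prior count 2) between the 10 receptor genes over 14 tumors, cryoablation tumors 2, 4 and 5 left out, with red for positive and blue for negative values. The highest pair is Tlr7 with Tlr13 at 0.84, and negative values appear mainly between Tlr1 and the pair Tlr3 and Tlr4.

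The genes most like each receptor, by Pearson's r of log2 CPM over the 17 tumors among 13004 other genes, differed from member to member. For Tlr1 they were Plcg2 (0.911) and Gpr132 (0.902), and for Tlr2 they were Irak3 (0.893) and Igsf6 (0.891). Tlr7 was nearest to Mpeg1 (0.935), a macrophage pore protein gene, and to Hk3 (0.928), and Tlr13 to Slc37a2 (0.934) and Shfl (0.922). Tlr3 was nearest to the interferon-induced family member Oas1b (0.896) and to Styk1 (0.894). Tlr4 was nearest to AW549877 (0.950) and Pdlim5 (0.947), Tlr5 to Tbc1d4 (0.931) and Plpp3 (0.922), and Tlr6 to Stk17b (0.924) and Zdhhc24 (0.911). For Tlr8, Ttf2 (0.978) and Ripk1 (0.974) led, and 250 genes had a coefficient over 0.9. Tlr9 was nearest to Nid2 (0.968) and Ppp6r1 (0.959), with 56 genes over 0.9. Tlr4 had 95 such genes, the other members had at most 11, and Tlr2 and Tlr3 had 0. Without the 3 tumors that stood apart, Tlr9 had 0.879 with Nid2 and 0.870 with Ppp6r1, Tlr8 had 0.938 with both Ttf2 and Ripk1, and Tlr4 had 0.935 with AW549877 and 0.923 with Pdlim5.

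A macrophage score, the mean log2 CPM of 10 macrophage and monocyte markers, was set against each receptor over the 17 tumors, with 100000 permutations and p adjusted over the 10 members. Tlr1 rose with the score (Pearson's r = 0.708, adjusted permutation p = 0.0182; Spearman's rho = 0.659, adjusted permutation p = 0.0463). Tlr13 had r = 0.664 (adjusted permutation p = 0.0182) and rho = 0.493 (adjusted permutation p = 0.152). The coefficients within the groups were 0.896 in the control and 0.540 in the cryoablation tumors for Tlr1, and 0.761 and 0.568 for Tlr13. Both relations rest on the tumors farthest from the median score, control tumor 4 and cryoablation tumor 7, since r was 0.445 for Tlr1 and 0.307 for Tlr13 without them.

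The other receptors did not pass this test. Tlr7 had r = 0.494 (adjusted permutation p = 0.105) and rho = 0.422 (adjusted permutation p = 0.23), and Tlr4 had r = -0.535 (adjusted permutation p = 0.0863) and rho = -0.564 (adjusted permutation p = 0.0999). Without control tumor 4 and cryoablation tumor 7, r was 0.116 for Tlr7 and -0.534 for Tlr4. Within the control and cryoablation groups r was 0.681 and 0.301 for Tlr7, and -0.161 and -0.82 for Tlr4. Tlr2 had r = 0.420 (adjusted permutation p = 0.189), with 0.777 within the control and -0.116 within the cryoablation group. The coefficients of Tlr3, Tlr5, Tlr6, Tlr8 and Tlr9 lay between -0.392 and -0.0481. Control tumor 4, the tumor high in Tlr1, was also the highest in Adgre1, a macrophage gene whose control range was 43.2 to 239 CPM and whose cryoablation range was 31.4 to 65.0 CPM. Adgre1 was lower in the cryoablation group at an unadjusted p (log2 fold change -0.69, SE 0.29; edgeR unadjusted p = 0.029, adjusted p = 0.728). It was 1 of 10 macrophage and monocyte markers that did so, beside 1.17% of all genes. Of the 10 markers, 5 had log2 fold changes below 0 and 5 above, with a median of 0.0119. Without control tumor 4 Adgre1 had -0.28 (edgeR unadjusted p = 0.0685), and its p was also above 0.05 without cryoablation tumor 4 or 7. With all tumors it had -0.25 by DESeq2 (Wald test unadjusted p = 0.0684) and -0.34 by limma voom (unadjusted p = 0.105). The summed level of those 10 markers ran from 2081 to 5334 CPM in the control and from 1381 to 7482 CPM in the cryoablation group.

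The 6 markers of plasmacytoid dendritic cells, a cell type known for Tlr7 and Tlr9, summed to 5.50 to 18.8 CPM in the control and 2.86 to 21.6 CPM in the cryoablation tumors, and 1 of 5 tested, Ccr9, was lower (log2 fold change -1.03, SE 0.35; edgeR unadjusted p = 0.00839, adjusted p = 0.728), beside 1.17% of all genes. The other 4 had log2 fold changes of 0.98 for Ly6d, 0.56 for Siglech, 0.23 for Cox6a2 and -0.54 for Spib, and the median of the list was 0.23. The 7 neutrophil markers summed to 40.2 to 151.5 CPM in the control and 64.6 to 115.5 CPM in the cryoablation tumors, with Ly6g at or below 0.172 CPM and Mmp9 between 30.2 and 92.8 CPM. Of 5 tested, S100a8 (log2 fold change 1.34, SE 0.53; edgeR unadjusted p = 0.0205, adjusted p = 0.728) and S100a9 (1.61, SE 0.65; edgeR unadjusted p = 0.0232, adjusted p = 0.728) were higher, beside 3.74% of all genes. The others tested had log2 fold changes of 0.26 for Retnlg, 0.185 for Mmp9 and -0.51 for Csf3r. At an unadjusted p, 3 of 3 erythroid and 2 of 4 adipocyte markers tested were also higher, and 0 of the 7 conventional dendritic cell, 5 T-cell, 6 fibroblast, 4 endothelial, 4 epithelial and 2 skeletal muscle markers tested, nor Ptprc, passed. The part of these cells in the receptor values was not tested.

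The rest of the pathway was taken from lists of 69 genes, of which 65 passed the filter. At an unadjusted p under 0.05, 4 were higher and 1 lower, beside 3.74% and 1.17% of all genes, and 0 passed after adjustment. The median log2 fold change of the 65 was -0.0688, against -0.0088 for all genes tested. The cofactors that single receptors need were all measured: Ly96, which joins Tlr4, ran from 3.36 to 8.88 CPM over all tumors, and Unc93b1, which carries the endosomal receptors to their compartment, from 51.6 to 208 CPM. Their log2 fold changes were 0.16 (SE 0.16; edgeR adjusted p = 0.768) for Ly96 and -0.12 (SE 0.21; edgeR adjusted p = 0.836) for Unc93b1. The adaptors Myd88 and Ticam1 had -0.06 (SE 0.10; edgeR adjusted p = 0.830) and -0.10 (SE 0.15; edgeR adjusted p = 0.811).

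Of the 9 partners and chaperones and the 18 adaptors and kinases, 0 and 0 passed an unadjusted p of 0.05. The smallest p in the first list belonged to Cd14, which hands lipopolysaccharide to Tlr4 (log2 fold change 0.32, SE 0.19; edgeR unadjusted p = 0.113), and to Lbp (-0.20, SE 0.16; edgeR unadjusted p = 0.243). In the second it belonged to Ripk1 (-0.22, SE 0.13; edgeR unadjusted p = 0.102), which was -0.06 without cryoablation tumors 2, 4 and 5, and to Ticam2, the bridge from Tlr4 to Ticam1 (-0.49, SE 0.29; edgeR unadjusted p = 0.105). Among 10 transcription factors, Nfkb2 was higher at an unadjusted p (0.24, SE 0.11; edgeR unadjusted p = 0.0375, adjusted p = 0.728), and Rela had 0.21 (SE 0.10; edgeR unadjusted p = 0.056). Nfkb2 had 0.07 without cryoablation tumors 2, 4 and 5 (edgeR unadjusted p = 0.408) and 0.16 without tumor 5 alone (edgeR unadjusted p = 0.0988), and its p was also above 0.05 without control tumor 2, 3, 4, 7, 8 or 9 or cryoablation tumor 2 or 7. Among 11 brakes tested, 0 passed, and Irak3, which holds back Myd88 signaling, had -0.65 (SE 0.32; edgeR unadjusted p = 0.0572) while Sigirr had 0.34 (SE 0.18; edgeR unadjusted p = 0.0836). Without control tumor 4 Irak3 had -0.28 (edgeR unadjusted p = 0.219).

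Of 17 output genes tested, 3 were higher and 1 lower at an unadjusted p, beside 3.74% and 1.17% of all genes. The 3 higher ones rested on 1 tumor. The chemokine genes Cxcl1 and Cxcl2 and the cytokine gene Il6 had log2 fold changes of 2.76 (SE 0.89), 1.74 (SE 0.80) and 2.30 (SE 0.87) and an edgeR adjusted p of 0.728 each. Their group medians were close, with 7.05 and 6.99 CPM for Cxcl1 in the control and cryoablation tumors, while the highest cryoablation tumor held 359 CPM. Without cryoablation tumor 7 the log2 fold changes were -0.22, -0.47 and -0.27. Il12b, a cytokine subunit gene, had -1.14 (SE 0.53; edgeR unadjusted p = 0.0459, adjusted p = 0.728), and -0.53 without control tumor 4. Its unadjusted p was above 0.05 without control tumor 3, 4 or 9 or cryoablation tumor 1, 2, 4, 6, 7 or 8, and that of Cxcl2 without control tumor 1, 2, 5, 6, 8 or 9 or cryoablation tumor 7. In control tumor 4 and cryoablation tumor 7 the receptors themselves differed: control tumor 4 was the highest of all tumors for Tlr1, Tlr2, Tlr6, Tlr7, Tlr9 and Tlr13, and cryoablation tumor 7 was the lowest for Tlr7 and Tlr13 and the highest for Tlr4.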

How the data were processed

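The authors deposited, per the file headers, a raw read count of each gene in each tumor, with no normalization applied. FPKM were deposited beside the counts, and a check showed that a count over its gene length and library total returns them. The authors captured mRNA on magnetic beads and sequenced it on a NovaSeq platform. GRCm38 and mm10 are named in the submitters' processing notes, while the aligner, the counting program and the strandedness are not given in the sources used here. The positions in the table equal the GENCODE M21 (GRCm38) starts for 0 of the 10 members, although the span has the same length for 9 of 10, so GENCODE positions were printed, matched by gene identifier. Tlr3 overlaps an antisense gene, Gm45542, which has no row in the deposited table. Whether reads from Gm45542 entered the Tlr3 counts is not known.

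Counts were tested with edgeR 4.0.16 in R 4.3.3 (TMM, filterByExpr by group, a quasi-likelihood F test on group alone, Benjamini-Hochberg adjustment over 13005 genes). Standard errors were derived from the log2 fold change and its F statistic. CPM are TMM-normalized, and log2 CPM used a prior count of 2. Single members were also compared by exact permutation, two-sided, over every division of the 17 tumors into 9 and 8. Groups came from the sample titles. The genes named are the 10 members, each listed pathway gene with an unadjusted p under 0.05, the 2 genes of each list with the smallest p, the cofactors Ly96, Cd14, Unc93b1, Myd88 and Ticam1, and the 2 genes most like each member. Adgre1, Csf1r and other markers were named after their values were seen. The members and lists were chosen with earlier results of these data known.

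The alternatives were DESeq2 1.42.0, voom of limma 3.58.1 with quality weights for the tumors, upper-quartile scaling, no filter, a filter at a mean of 10 counts, the replicate number as a block, offsets for gene length, a prior count of 0.5, and leaving out tumors. Intervals of depth and floors of 3 counts cover counting error only. The scripts were tested on simulated data. 0 pairs of tumors had identical counts. 1 marker list is not reported here.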

Additional observations from a re-analysis of the deposited data

Results flagged for a closer look

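Tlr1 in control tumor 4 held 27.9 CPM, and the next of the 9 control tumors held 12.7 CPM, so that the gap took 0.517 of the whole range of the group in log2 CPM. The gap exceeded Dixon's 95% critical value. This was 1 of 20 gene and group combinations examined, and chance gives about 1 in 20. The log2 fold change of Tlr1 was -0.47 with this tumor and -0.17 without it.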

How the results depend on the processing

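The count of receptors with an adjusted p under 0.05 was 0 under every alternative run, and the members' median log2 fold change stayed below 0. With limma voom the count at an unadjusted p rose from 0 to 2 receptors (Tlr7 and Tlr8) and that of signaling genes from 5 to 12, while the calls over all 13005 genes rose from 639 to 1312. Leaving out each tumor in turn gave 0 to 2 receptors and 3 to 10 signaling genes. The 2 were Tlr7 and Tlr9 without cryoablation tumor 3, and Tlr7 was the 1 without control tumor 1 or 6. The 10 signaling genes came without control tumor 1 or cryoablation tumor 3, 8 came without cryoablation tumor 6, and 3 came without control tumor 2, 3, 4, 8 or 9 or cryoablation tumor 2. Over all genes these settings gave 1284 and 1388 calls, 1298 calls, and 252 to 441 calls. With the replicate block the signaling count was 1 and the members' median -0.28. The block was not used in the test because same-numbered tumors share only a number: the correlation of their deviations ran from -0.510 to 0.642 and was over 0.1 in 4 of 8 pairs.

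Of 260 fold changes of members under 26 alternatives, 9 turned above 0. With length offsets Tlr3 was 0.0070. Leaving out each tumor in turn, Tlr3 ran from -0.1199 to 0.0638 and Tlr4 from -0.1387 to 0.0023. Without cryoablation tumors 2, 4 and 5, Tlr3 was 0.0300, Tlr4 0.1113, Tlr5 0.0175 and Tlr6 0.0443. Without these 3 and control tumors 1 and 5, the 5 lowest on the first component, an alternative chosen after seeing the data, Tlr4 was 0.0253. The cause was not tested.

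Correlations with the macrophage score turned sign for Tlr2 within the cryoablation group (-0.116). Within the control group they did so for Tlr5 (0.301), Tlr6 (0.641), Tlr8 (0.141) and Tlr9 (0.395), and without cryoablation tumors 2, 4 and 5 for Tlr5 (0.199), Tlr6 (0.358), Tlr8 (0.0732) and Tlr9 (0.431). A count of 0 to 3, as for Tlr9 in those 3 tumors and Tlr8 in cryoablation tumor 4, lies at the floor of this depth, so smaller levels there were not detectable.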

Other observations

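Of the 2 other receptors of this family that the table lists, Tlr12 had 0.690 to 4.01 CPM in the control tumors (median 1.98) and 0.422 to 3.38 CPM in the cryoablation tumors (median 2.10), with a log2 fold change of -0.15 (SE 0.35; edgeR adjusted p = 0.873), and of -0.0038 without control tumor 4. Tlr11 reached 2.33 CPM in 1 control tumor, had group medians of 0.304 and 0.157 CPM, and did not pass the filter on low counts.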
